A study of Mus musculus with 18 samples.

Results

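The 12 livers described here came from mice fed a Western-style diet, 6 without and 6 with quercetin, out of 18 liver arrays in the series. The livers were ordered by a severity index, the mean log2 level of Col1a1, Col3a1, Gpnmb and Lgals3 in each liver, centred on the mean of its own diet group. The index was then set against every other gene on the array. All mice were males of the inbred strain C57BL/6J, bought at 5 weeks of age, kept on a standard diet for a week and then fed their test diet for 20 weeks. The control group received AIN93G, a purified rodent diet. The Western group received a butter-based diet in which fat gave 39.9% and sucrose 34.0% of the energy, with cholesterol added at 0.15%. In the quercetin group the same diet carried 0.05% quercetin, a plant flavonol. No transgene or genetic change was named for any group. Mice were housed 3 to a cage, and the labels do not give which mice shared one. The p-values therefore measure the spread between individual mice, each treated as independent. They would be too small if cage mates were alike, which was not tested. Control 4 and control 5 differed by less than any other pair of arrays, so their mean was counted as 1 control sample. Each array held whole-liver RNA of 1 mouse, read as log2(signal + 16) after quantile normalization. The word severity names the index only, since no histology was analysed here.

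Fibrosis of a fatty liver is laid down mainly by hepatic stellate cells, which turn into myofibroblasts and secrete fibrillar collagen. Col1a1 and Col3a1 encode chains of the main fibrillar collagens, type I and type III. Macrophages gather in the same tissue, partly from resident Kupffer cells and partly from blood monocytes, and those that take up lipid carry a recognisable set of genes. Gpnmb, a transmembrane glycoprotein of lipid-laden macrophages, and Lgals3, the galactose-binding lectin galectin-3, belong to that set. In whole-tissue RNA, fewer cells of a type and less RNA per cell cannot be told apart.

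The promoters of the index genes, and of a pair of macrophage genes that moved closely with them, are shown because these genes rise and fall together from liver to liver. Each window covers 250 bases before the first base of the gene and 50 from it, written 5′ to 3′ from the RefSeq annotation of GRCm38.p6. Capitals mark every match, on either strand, to 6 motifs searched: the TATA box TATAAA, the CCAAT box, the AP-1 site TGANTCA, the E-box of MiT/TFE factors CACGTG, the PU.1 core GAGGAA and the HNF4 core CAAAGTCCA. Col1a1 is named only. The windows lie at chr1:45311288-45311587 on the plus strand for Col3a1, chr6:49036268-49036567 (plus) for Gpnmb, chr14:47373610-47373909 (plus) for Lgals3, chr11:69666121-69666420 (minus) for Cd68 and chr7:128129300-128129599 (plus) for Itgax.
Col3a1: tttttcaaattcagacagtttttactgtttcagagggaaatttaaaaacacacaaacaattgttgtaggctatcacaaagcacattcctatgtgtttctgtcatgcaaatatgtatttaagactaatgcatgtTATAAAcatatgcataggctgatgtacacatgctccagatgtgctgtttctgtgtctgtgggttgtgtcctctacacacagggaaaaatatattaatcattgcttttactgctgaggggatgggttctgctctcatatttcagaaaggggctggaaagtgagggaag
Gpnmb: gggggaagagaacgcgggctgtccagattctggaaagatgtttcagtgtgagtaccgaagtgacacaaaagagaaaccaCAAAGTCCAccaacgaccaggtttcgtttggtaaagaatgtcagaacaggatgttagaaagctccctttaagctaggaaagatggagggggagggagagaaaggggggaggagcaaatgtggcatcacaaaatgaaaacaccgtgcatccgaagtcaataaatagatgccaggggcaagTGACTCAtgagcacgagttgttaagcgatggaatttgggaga
Lgals3: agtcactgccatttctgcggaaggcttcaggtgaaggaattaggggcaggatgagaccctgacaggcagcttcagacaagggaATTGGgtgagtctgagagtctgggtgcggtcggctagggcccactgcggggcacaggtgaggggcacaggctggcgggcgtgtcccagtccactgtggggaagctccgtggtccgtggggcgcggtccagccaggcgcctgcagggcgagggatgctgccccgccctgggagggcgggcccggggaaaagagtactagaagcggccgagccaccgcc
Cd68: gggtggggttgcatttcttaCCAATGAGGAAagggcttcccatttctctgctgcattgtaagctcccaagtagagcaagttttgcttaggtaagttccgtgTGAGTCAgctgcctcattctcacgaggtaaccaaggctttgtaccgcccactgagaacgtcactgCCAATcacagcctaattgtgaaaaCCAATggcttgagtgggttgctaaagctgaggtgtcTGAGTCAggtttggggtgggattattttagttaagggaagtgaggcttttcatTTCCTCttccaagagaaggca
Itgax: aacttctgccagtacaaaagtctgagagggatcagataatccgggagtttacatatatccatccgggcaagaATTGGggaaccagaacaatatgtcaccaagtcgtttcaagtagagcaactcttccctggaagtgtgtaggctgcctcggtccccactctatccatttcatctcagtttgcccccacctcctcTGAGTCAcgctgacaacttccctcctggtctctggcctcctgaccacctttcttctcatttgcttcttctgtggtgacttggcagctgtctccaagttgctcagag

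The AP-1 letters TGANTCA were found at position 9 of Gpnmb, -56 of Itgax, and -149 and -24 of Cd68, where 1 is the first base of the gene and -1 the base before it. Clec7a, Lyz2 and Ccl6, myeloid genes described further on, followed the index about as closely as Cd68 and Itgax (r = 0.95, 0.95 and 0.96). Their windows, not printed here, were searched too and held no TGANTCA. Those of Lyz2 and Ccl6 held none of the motifs searched. The Col3a1 window held a TATAAA at -117. Lgals3 held a CCAAT on the opposite strand at -167. In Gpnmb the HNF4 letters began at -171. The first capital run of Cd68 joins a CCAAT with a GAGGAA beside it, without overlap. Among all 32851 windows of the same length, TGANTCA stood in 7.81%, TATAAA in 13.6%, CCAAT in 37.4%, CACGTG in 7.15%, GAGGAA in 28.3% and CAAAGTCCA in 0.475%. Windows were held for 336 of the 413 genes that were higher with the index, as described further on, and these genes had 439 windows. TGANTCA stood in 8.20% of these and GAGGAA in 36.7%, where the 13980 windows of all tested genes held them in 5.79% and 26.7%. The shares of the TATA box, CCAAT box, E-box and HNF4 core were 10.9%, 33.7%, 6.38% and 1.14%, against 8.30%, 37.2%, 9.51% and 0.529% over the tested genes. Among 81 windows of lower genes, the AP-1 site stood in 6.17%, the PU.1 core in 19.8%, the TATA box in 8.64%, the CCAAT box in 40.7%, the E-box in 7.41% and the HNF4 core in 2.47%. A match describes letters in a window and shows no binding.

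The index genes themselves spread widely among the Western-fed livers. The order of the livers was chosen by these values, so they are given as a description without a test. Col1a1 had log2 levels from 6.05 to 7.18 (median 6.95) in the Western group and from 5.37 to 7.38 (median 6.47) in the quercetin group, against 4.63 to 5.35 in the control group. For Col3a1 the Western livers ran from 9.07 to 10.14 and the quercetin livers from 8.52 to 10.32, all above the control maximum of 8.12. Gpnmb spanned 6.07 to 7.42 in the Western group and 5.68 to 8.07 in the quercetin group, a 5.26-fold range of signal + 16 in the latter, while no control liver exceeded 4.92. Lgals3 spanned 7.84 to 9.31 and 7.48 to 9.57 in these groups, and control livers stayed between 6.83 and 7.23. Across the 12 livers, after centring within diet, the genes correlated pairwise with r from 0.89 to 0.97. The mean of the collagens and the mean of Gpnmb and Lgals3 correlated with r = 0.95 (n = 12; the points share arrays and normalization).

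**Figure D1:**
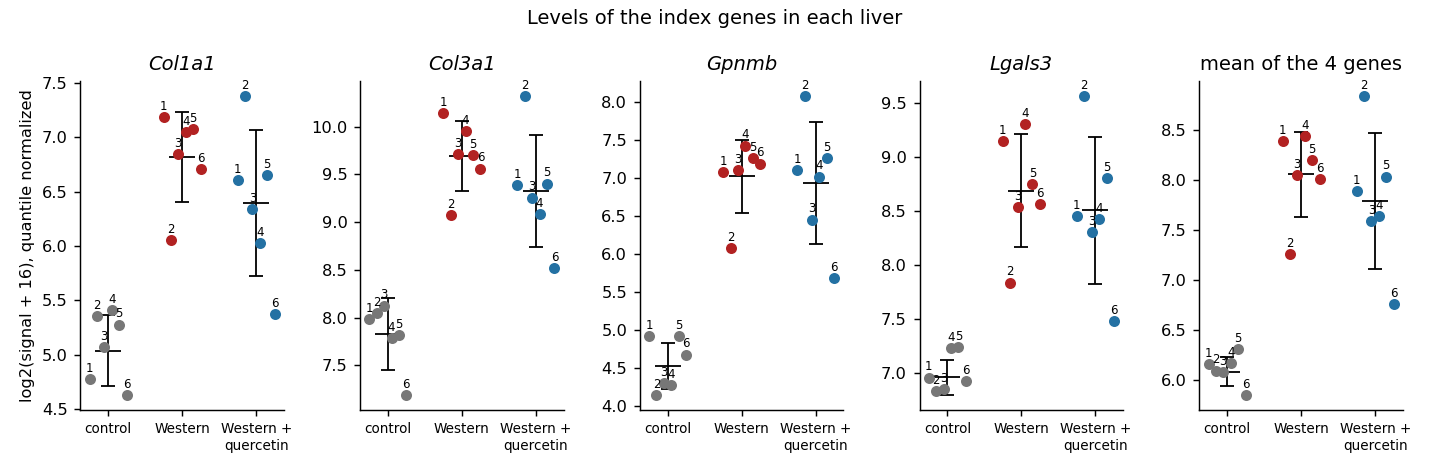
Log2(signal + 16) of each index gene and of their mean (vertical axes) in every control, Western and quercetin liver (points numbered by liver; bars show mean ± SD, with control 4 and 5 averaged). The quercetin group reaches from 6.76 to 8.84 in the mean of the 4 genes, the Western group from 7.26 to 8.43, and every control liver lies below both.

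Before centring, the mean of the 4 genes was 6.09 ± 0.14 in the control group (SD, n = 5), 8.06 ± 0.43 in the Western group (SD, n = 6) and 7.79 ± 0.68 in the quercetin group (SD, n = 6). Highest and lowest livers differed 1.31-fold in the control group, 2.26-fold in the Western group and 4.21-fold in the quercetin group. The centred index was lowest in quercetin 6 (-1.03) and Western 2 (-0.80) and highest in quercetin 2 (1.05). The other 9 livers lay between -0.20 and 0.38. The widest gap between neighbouring livers, 0.67 below quercetin 2, was 32.2% of the whole range. Western 2 and quercetin 6 also stood apart from the rest, below quercetin 3 at -0.20. Other probe sets of the index genes followed the index with r = 0.92 for Col3a1 and 0.66 for Col1a1, and with 0.37 for a dim probe set of Gpnmb.

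Array quality measures were set against the index in the same 12 livers. Array brightness (the trimmed mean signal) had r = 0.44 with the index (rho = 0.57, permutation p = 0.128 for r and 0.078 for rho; Benjamini-Hochberg p = 0.513 and 0.238 over 4 measures), and r = 0.72 without the livers farthest from the median index, quercetin 2 and quercetin 6. Within groups this relation differed in size, with r = 0.88 in the 6 Western livers and 0.10 in the 6 quercetin livers. The 3′ to 5′ signal ratio of actin, which rises as RNA breaks down, had r = -0.23 (rho = -0.26, permutation p = 0.457 and 0.463) and 0.03 without those livers. For the Gapdh ratio r was -0.40 (rho = -0.51, permutation p = 0.306 and 0.119), and for 18S signal -0.17 (rho = -0.17, permutation p = 0.640 and 0.637). The livers numbered 1 to 3 had a mean index level of 7.90 in the Western group and 8.10 in the quercetin group, and those numbered 4 to 6 had 8.21 and 7.48. Hepatocyte markers, which check the tissue label, had a summed log2 signal of 16.50 to 16.60 in all 12 livers.

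The genes that rose with the index included markers of macrophages, matrix genes and cell division genes, and those that fell included cytochrome P450 genes of the hepatocyte. In a linear model with a mean for each diet group and a slope on the index (limma), 502 of 13641 genes were called at an adjusted p under 0.05 (3.68%), of which 413 were higher with the index (3.03% of the genes) and 89 lower (0.652%). A slope is the log2 difference of a gene per log2 unit of index. The median slope was 0.48 among the higher genes and -0.42 among the lower, where over all genes it was -0.00011. A slope above 0.5 was reached by 187 genes and one below -0.5 by 34. With the values as deposited, without normalization, 838 genes were higher and 30 lower, and with array medians centred 662 and 42. The share of called genes that were higher was then 96.5% and 94.0%, against 82.3%. With array brightness as a covariate 270 were higher and 59 lower.

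All 413 higher and 89 lower genes had a slope of the same sign in the Western and in the quercetin livers when each group was fitted alone, although both groups had entered the calls. A fit of the 6 quercetin livers alone called 88 genes higher and 10 lower. In the 6 Western livers, which that fit did not use, 86 of the 88 and all 10 had the same sign, where 51.6% of all genes had a positive slope and 48.4% a negative one. Fos, an immediate early transcription factor, and Marco, a scavenger receptor of macrophages, were the exceptions, with slopes of 1.00 and 1.19 in the quercetin livers and -0.31 and -0.18 in the Western livers. They were chosen after their values were seen. The median slope of the 88 genes was 0.71 in the quercetin livers and 0.56 in the Western livers, and 56 of them had an unadjusted p under 0.05 (limma) with a positive slope in the latter, where 7.16% of all genes did. For the 10 lower genes the medians were -0.68 and -0.59, with 4 below that p against 5.34% of all genes. Genes are not independent of each other, so these shares are a description. The Western livers alone called 0 genes at the adjusted threshold. The test of a difference in slope between the diet groups also called 0 genes (964 had an unadjusted p under 0.05, and the smallest adjusted p was 0.383, limma).

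**Figure D2:**
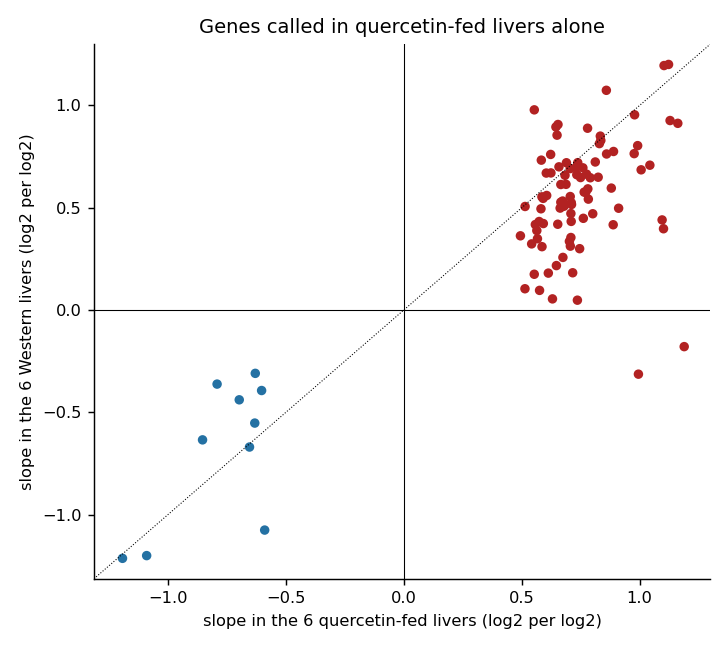
Slope on the index in the 6 Western livers (vertical) against the slope in the 6 quercetin livers (horizontal), both in log2 per log2 unit of index, for the genes called in the quercetin livers alone. Red points are the 88 higher genes and blue points the 10 lower ones, the dotted line marks equal slopes, and all but 2 points keep their sign.

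The number of calls depended on the livers at the ends of the index. Without quercetin 2, the liver with the highest index, 44 genes were higher and 2 lower. Without quercetin 6 the counts were 199 and 20, and without Western 2 they were 242 and 50. Without Western 1, 49 genes were lower. Every one of the 413 and 89 genes kept its sign when any 1 liver was left out, and the median slope of the 413 without quercetin 2 was 0.47. Without both quercetin 2 and quercetin 6 the counts were 9 and 1, with median slopes of 0.49 and -0.42 for the same 413 and 89 genes. These genes had been called for their slopes with all the livers in the fit. Their kept signs and medians follow largely from that choice and are a description, not a separate test. With Western 2 left out too, a setting chosen after seeing the data, 396 of the 413 and 83 of the 89 kept their sign. In all, 31 higher and 2 lower genes passed the threshold whichever single liver was left out. Both these lower genes, AU015791 (slope -0.66 ± 0.08, SE) and 1700036A12Rik (-0.66 ± 0.10), are named by their identifiers only.

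**Figure D3:**
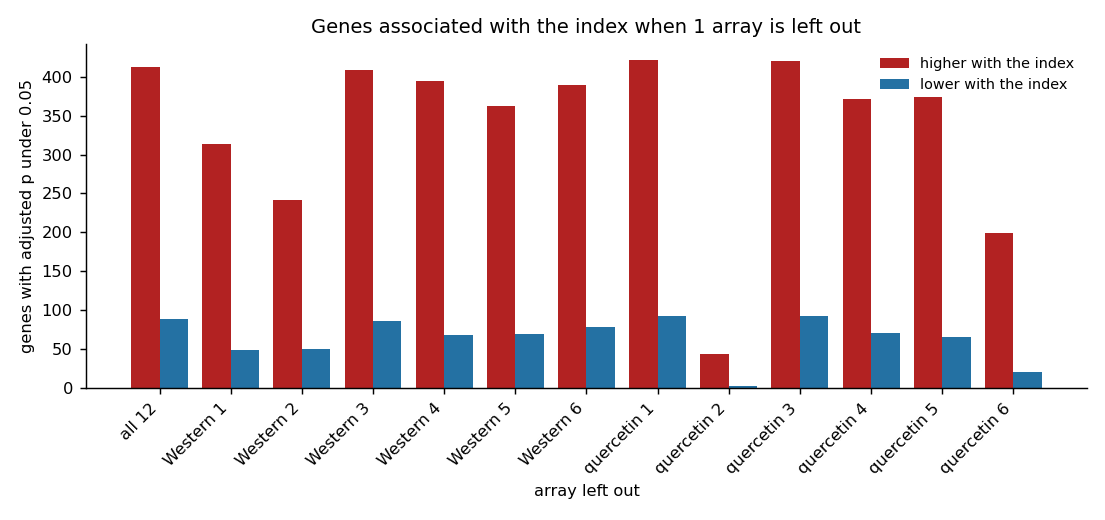
Number of genes with an adjusted p under 0.05 (vertical) when all 12 livers were used and when each liver was left out in turn (horizontal). Red bars are genes higher and blue bars genes lower with the index. The count of higher genes goes from 413 to 44 without quercetin 2 and to 199 without quercetin 6.

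Monocyte and macrophage genes formed the group with the most calls. Of 19 monocyte and pan-myeloid markers tested, 14 were higher, 0 were lower and 5 did not pass, with a median slope of 0.62 against -0.00011 over all genes. Lipid-associated macrophage markers other than the index genes were higher in 10 of 18 cases, with a median slope of 0.39. Over all genes 3.03% were higher. Gpnmb and Lgals3, which belong to this list, are part of the index. With an index of the collagens alone, 12 of these 18 and 15 of the 19 monocyte and pan-myeloid markers were higher. The summed signal of the monocyte and pan-myeloid list ran from 12.16 to 13.07 in the Western livers and from 11.93 to 13.49 in the quercetin livers, against 11.57 to 11.84 in the control livers. Without quercetin 2, 3 and 4 members of these lists passed, with median slopes of 0.53 and 0.36. Both lists, like all others here, were chosen with earlier results of these data known.

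Cd68, a lysosomal glycoprotein of macrophages, had log2 levels from 7.16 to 8.28 (median 7.98) in the Western group and from 6.91 to 8.65 (median 7.66) in the quercetin group, with control livers between 6.43 and 6.89. Western 2 and quercetin 6 were its lowest livers and quercetin 2 its highest, and no Western-fed liver overlapped the control range. Its slope was 0.84 ± 0.09 (SE), or 1.79-fold per log2 unit of index (adjusted p = 0.000407, limma), with r = 0.96 (permutation p = 1e-04), rho = 0.71 (p = 0.020) and r = 0.90 without quercetin 2 and quercetin 6. Itgb2, the beta chain shared by the leukocyte integrins, ran from 6.85 to 8.10 in the Western group and from 6.63 to 8.68 in the quercetin group, 1.96-fold per unit of index (adjusted p = 0.000407). Its lowest Western-fed livers overlapped the control range of 6.38 to 6.92. Itgax, the integrin chain CD11c of dendritic cells and of some macrophages, was a dimmer gene, at 5.39 to 6.55 and 5.36 to 6.63 in the Western-fed groups and 5.20 to 5.71 in the control group. It followed the order of the livers closely, with r = 0.96 and rho = 0.97 (permutation p = 1e-05 for r and 4e-05 for rho). The former is the smallest p that 100000 permutations can give. Without quercetin 2 and quercetin 6 the r of Itgax was 0.97. Its slope was 0.72 ± 0.08 (SE; adjusted p = 0.000498, limma). Where r is given below without the end livers, quercetin 2 and quercetin 6 are meant. Western 2, at an index of -0.80, stays in, so such values are not free of livers far from the rest.

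The steepest slopes of the lipid-associated macrophage list belonged to secreted enzymes, Mmp12 and Lpl. Mmp12, the macrophage elastase, had levels from 6.14 to 7.75 in the Western group and from 5.24 to 7.52 in the quercetin group, while control livers reached at most 4.93. It differed 2.21-fold per unit of index (slope 1.14 ± 0.13, SE; adjusted p = 0.000693), with r = 0.93, rho = 0.91 (permutation p = 3e-05 and 0.00046) and r = 0.89 without the end livers. Lpl, the lipoprotein lipase that frees fatty acids from circulating triglyceride, ran from 8.65 to 9.87 and from 8.03 to 10.43, above a control maximum of 7.97. Its slope was 1.09 ± 0.10 (SE; adjusted p = 0.000363), and a second probe set had 0.82. Lyz2, a lysozyme of myeloid cells, had a slope of 0.92 ± 0.09, and Lyz1, a close paralog whose probe sets may read both genes, 0.86 ± 0.08, with 0.92 and 0.07 on its other probe sets. Clec7a, the beta-glucan receptor dectin-1, had a slope of 0.92 ± 0.10, Cyba, a subunit of the phagocyte NADPH oxidase, 0.83 ± 0.08, and Coro1a, an actin-binding coronin of leukocytes, 0.74 ± 0.08. Mmp12, Lpl, Lyz1, Lyz2, Clec7a, Cyba and Coro1a passed the threshold with any 1 liver left out, as did Cd68, Itgb2 and Itgax.

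Tmsb10, an actin-monomer binding thymosin, had the smallest p of all genes (slope 0.82 ± 0.07, SE; adjusted p = 0.000206, limma). It passed with any 1 liver left out, at an adjusted p of at most 0.0101. Its other probe sets had slopes of 0.78 and 0.61, and of 0.03 and 0.02 on the dimmest. Anxa2, an annexin (slope 0.94 ± 0.15), lost its call without quercetin 2 (adjusted p = 0.0779), as did Ccr2, the receptor by which monocytes enter tissue (0.63 ± 0.09; adjusted p = 0.0511 without it). Other probe sets of Anxa2 had slopes of 0.20 and, on the dimmest, -0.08, and those of Ccr2 had 0.39, 0.22 and 0.22. Trem2, a defining receptor of lipid-associated macrophages that was chosen after its values were seen, ran from 4.27 to 5.10 over all groups, near the limit for dim genes of 4.56. Its brightest probe set had a slope of 0.22 ± 0.09 (adjusted p = 0.228), with -0.07 in the Western livers alone, and a second dim one had 0.73.

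**Figure D4:**
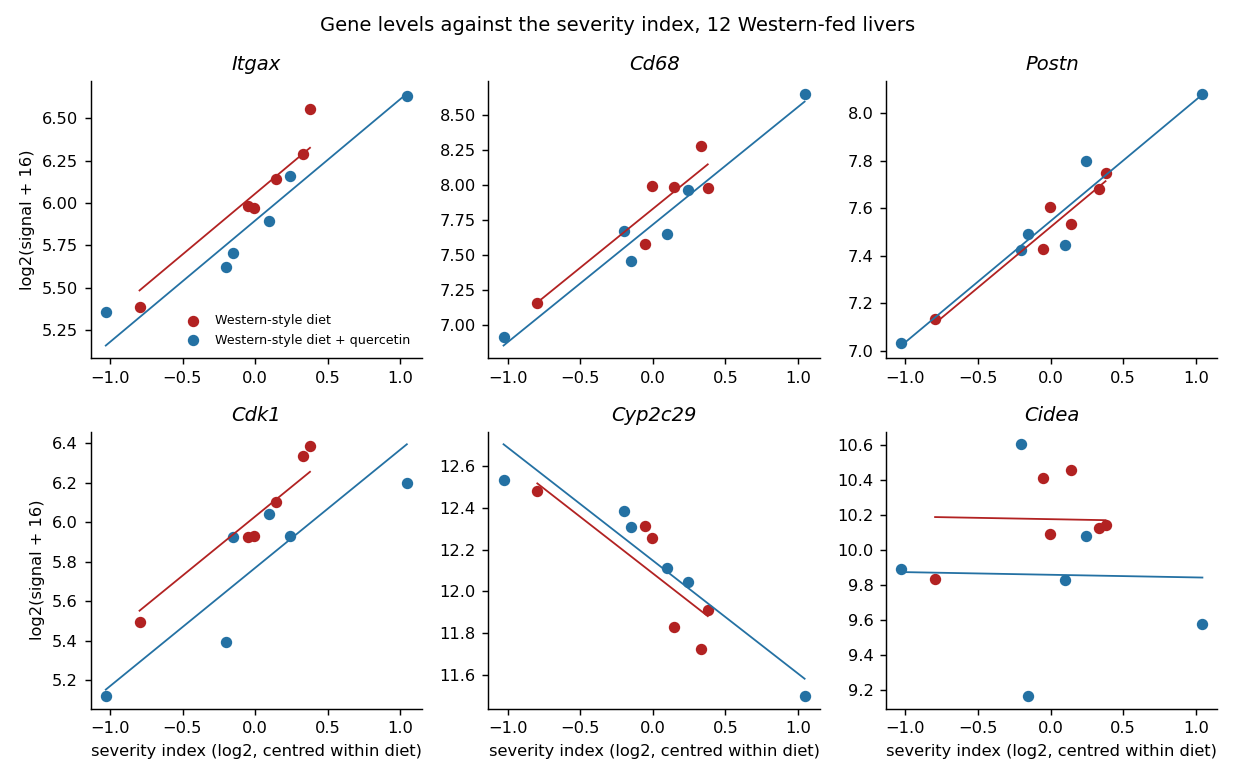
Log2(signal + 16) of 6 genes (vertical axes) against the severity index in log2 units, centred within diet (horizontal axes), with 1 point per liver. Lines pass through the mean of each diet group at the slope fitted over both groups, so they are parallel by construction. Itgax, Cd68, Postn and Cdk1 climb from the liver with the lowest index to those with the highest, Cyp2c29 descends, and Cidea shows a slope of -0.02 per unit.

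Kupffer cell markers were higher in 6 of 16 cases and lower in 0, with a median slope of 0.50. Over all genes 3.03% were higher. Cd5l, a secreted protein made by resident macrophages, ran from 10.58 to 11.31 in the Western group and from 10.10 to 11.67 in the quercetin group, against 9.86 to 10.16 in the control group. Only quercetin 6 fell within the control range. The slope of Cd5l was 0.71 ± 0.08 (SE; adjusted p = 0.000461, limma), with r = 0.96, rho = 0.91 (permutation p = 3e-05 and 0.00038) and r = 0.88 without the end livers. C1qb and C1qc, chains of the complement starter C1q, had slopes of 0.83 ± 0.12 and 0.73 ± 0.12, and Clec1b, the platelet and Kupffer cell receptor CLEC-2, 0.59 ± 0.09. Without quercetin 2 their adjusted p-values were 0.0511, 0.106 and 0.0762, and 1 Kupffer cell marker passed. With the values as deposited 11 did. Other probe sets of C1qb had slopes of 0.33 and 0.56. Cd163, the hemoglobin scavenger receptor, was chosen after its values were seen. It ran the other way (slope -0.52 ± 0.15, SE) without passing the threshold (adjusted p = 0.086). The Western group minus the control group was -1.15 on the log2 scale for this gene (adjusted p = 0.00285, limma).

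Of 6 MHC class II genes, which present peptides to helper T cells, 4 were higher with the index and 0 lower, with a median slope of 0.50. The share of all genes that were higher was 3.03%. Cd74, the invariant chain of the class II complex, ran from 9.46 to 10.31 in the Western group and from 9.26 to 10.75 in the quercetin group, against 9.02 to 9.39 in control livers. Its slope was 0.71 ± 0.09 and that of H2-Eb1, a class II beta chain, 0.64 ± 0.07 (SE; adjusted p = 0.00141 and 0.000693, limma), and both passed with any 1 liver left out. H2-Ab1 had 0.56 ± 0.12 and lost its call without quercetin 2 (adjusted p = 0.194) or quercetin 6 (0.214). H2-Aa had 0.43 ± 0.10 and lost it without any 1 of 6 livers, Western 1, 4 and 5 and quercetin 2, 5 and 6 (0.0567 to 0.269), though its other 3 probe sets had slopes of 0.50 to 0.94. Without quercetin 2 or quercetin 6, 2 of the class II genes passed.

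Markers of other blood cells gave between 0 and 2 calls a list, to be read against the 3.03% of all genes that were higher and the small size of these lists. None of 6 T cell markers tested was called, with a median slope of 0.06 and slopes from 0.02 to 0.15. Of 13 listed T cell markers, 11 were on the array and 6 passed the filter on dim genes. Their summed signal was 6.33 to 6.71 in the Western livers and 6.56 to 6.96 in the control livers, and no quercetin liver exceeded the Western maximum. Dendritic cell markers had 0 of 5 called and a median slope of -0.06. For B and plasma cells 1 of 8 was called, Blnk, an adaptor of B cell receptor signalling that is also made in macrophages (slope 0.58 ± 0.13; adjusted p = 0.0944 without Western 2 and 0.259 without quercetin 2). For NK cells 1 of 6 was called, Klrd1, a lectin-like receptor (0.34 ± 0.09), and it was lost whichever liver was left out (adjusted p from 0.0514 to 0.177). Of 7 neutrophil markers 2 were higher. S100a8, a calcium-binding protein of neutrophils and monocytes, had a slope of 0.80 ± 0.16 and rested on quercetin 2, at 7.46 where the next quercetin liver was at 6.09 (adjusted p = 0.233 without quercetin 2 and 0.0526 without Western 2). Csf3r, the G-CSF receptor, had 0.66 ± 0.12, with an adjusted p of 0.0779 without quercetin 2 and 0.0751 without quercetin 6.

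Chemokines and inflammatory signalling genes moved in part, to be read against the 3.03% of all genes that were higher. Of 22 chemokine genes and receptors 4 were higher and 0 lower (median slope 0.27), of 24 inflammatory signalling genes 5 and 0 (median 0.25), and of 18 interferon-stimulated genes 5 and 0 (median 0.24). Ccl6, a chemokine of myeloid cells, ran from 8.15 to 9.03 in the Western group and from 7.81 to 9.28 in the quercetin group, all above the control maximum of 7.57. Its slope was 0.70 ± 0.08 (SE; adjusted p = 0.000572), with r = 0.96, rho = 0.94 (permutation p = 2e-05 and 0.00014) and r = 0.89 without the end livers, and it passed with any 1 liver left out. Tlr1, a receptor for bacterial lipopeptides, had a slope of 0.80 ± 0.10, Icam1, an adhesion molecule for leukocytes, 0.48 ± 0.08, and Gbp2, an interferon-induced guanylate-binding protein, 0.46 ± 0.07. Without quercetin 2 their adjusted p-values were 0.0511, 0.0928 and 0.0511. Tlr2 had 0.37 ± 0.09 and lost its call without Western 1 (0.0598), quercetin 2 (0.388) or quercetin 6 (0.111). Cxcl2, a neutrophil attractant, had 0.47 ± 0.10 over the 12 livers, with 0.63 in the quercetin livers and 0.05 in the Western livers, and lost its call without quercetin 2 (0.313) or quercetin 6 (0.187). Oasl2 and Ifi27l2a, both induced by interferon, had slopes of 0.40 ± 0.08 and 0.48 ± 0.09. They lost their calls without Western 2 (0.0554 and 0.0587), quercetin 2 (0.0924 and 0.0702) or quercetin 6 (0.0608 and 0.0789). Without quercetin 2, 1 chemokine list member, 0 inflammatory signalling genes and 0 interferon-stimulated genes passed. Without quercetin 6, 2 members of the chemokine list and 2 interferon-stimulated genes passed, and without Western 2, 1 of the latter. With the values as deposited 8 chemokine list members and 11 inflammatory signalling genes were higher.

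Lysosomal genes were higher in 10 of 26 cases and lower in 0, with a median slope of 0.25, where 3.03% of all genes were higher. Ctsc, the protease that activates granule enzymes of leukocytes, had a slope of 0.63 ± 0.10, and Ctsd, the main aspartic protease of lysosomes, 0.39 ± 0.06. Between the Western and control groups 8 of the 26 lysosomal genes were higher and 0 lower, where 8.65% of all genes were called in either direction. Ctsc differed by 0.30 on the log2 scale between these groups without passing the threshold (adjusted p = 0.385, limma). Its quercetin livers ran from 9.39 to 10.87 around a control range of 9.66 to 10.09. Without quercetin 2 both genes had an adjusted p of 0.0910 and 0 lysosomal genes passed, at a median slope of 0.23. Without quercetin 6, 5 lysosomal genes passed, and without Western 2, 6.

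Extracellular matrix genes other than Col1a1 and Col3a1, which are part of the index, moved with it as well. Of 16 collagen genes tested 6 were higher and 1 lower (median slope 0.21). Of 23 genes of matrix remodelling and crosslinking 7 were higher and 0 lower (median 0.33), where over all genes 3.03% were higher and 0.652% lower. Mmp12 was among these 7 and is also on the lipid-associated macrophage list. With an index of Gpnmb and Lgals3 alone, 4 of the collagens and 4 of the remodelling genes were higher. Postn, the matricellular protein periostin, ran from 7.14 to 7.75 (median 7.57) in the Western group and from 7.03 to 8.08 (median 7.47) in the quercetin group, above a control range of 6.31 to 6.99. Its slope was 0.51 ± 0.06 (SE), or 1.42-fold per unit of index (adjusted p = 0.00139), with r = 0.97, rho = 0.94 (permutation p = 7e-05 and 0.00018) and r = 0.91 without the end livers. It passed with any 1 liver left out. Col5a2, a chain of the type V collagen that nucleates fibrils, ran from 5.90 to 6.51 and from 5.64 to 6.66, all above the control maximum of 5.52. The slope of Col5a2 was 0.49 ± 0.06, with an adjusted p of 0.00154 over all livers and 0.0511 without quercetin 2, and a dim second probe set had 0.05.

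Timp1, an inhibitor of metalloproteinases, had a slope of 0.60 ± 0.10 and lost its call without quercetin 2 (adjusted p = 0.0603) or quercetin 6 (0.0836). The slope of Mmp2, a gelatinase of stellate cells, was 0.68 ± 0.10 (0.0702 without quercetin 2), but its other bright probe set had -0.01. Col4a1 of basement membranes had 0.47 ± 0.10 (0.139 without quercetin 2 and 0.126 without quercetin 6), and Col6a1 of microfibrils 0.51 ± 0.11 (0.0981 without Western 2 and 0.230 without quercetin 2). A second probe set of Col4a1 had 0.24. Col14a1, a fibril-associated collagen, had 0.34 ± 0.07, and lost its call without Western 2 (0.0823), quercetin 2 (0.159) or quercetin 6 (0.0780). The single lower collagen was Col27a1, at -0.55 ± 0.13, which was chosen after its values were seen. Its Western-fed livers, 7.09 to 8.34, overlapped the control range of 7.59 to 8.71, and its call was lost without Western 2 (0.0584), quercetin 2 (0.236) or quercetin 6 (0.163). Without quercetin 2, 0 of the 16 collagens and 2 of the 23 remodelling genes passed, at median slopes of 0.16 and 0.33. Without quercetin 6, 3 and 3 passed, and without Western 2, 2 collagens. With the values as deposited the collagens had 7 higher and 0 lower, and 13 remodelling genes were higher.

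Stellate cell and pericyte markers were higher in 5 of 19 cases and lower in 0 (median slope 0.25). Genes of TGF-beta and PDGF signalling were higher in 2 of 19 (median 0.17), where 3.03% of all genes were higher. With an index of Gpnmb and Lgals3 alone, 3 stellate cell markers and 2 TGF-beta and PDGF genes were higher. Pdgfrb, the receptor by which PDGF drives stellate cells to divide, had 0.34 ± 0.07 (adjusted p = 0.175 without quercetin 2 and 0.117 without quercetin 6). Pdgfra had 0.44 ± 0.10 (0.0564 without Western 1, 0.119 without Western 2, 0.132 without quercetin 6). Vim, the intermediate filament vimentin of mesenchymal cells, ran from 8.03 to 8.84 and from 7.92 to 8.92, above a control maximum of 7.60, with a slope of 0.54 ± 0.09 (0.0791 without quercetin 2). Acta2, the smooth muscle actin used to recognise myofibroblasts, was chosen after its values were seen. Its Western livers at 7.21 to 7.68 and quercetin livers at 7.08 to 7.60 lay inside the control range of 6.72 to 7.73, and its slope was 0.06 ± 0.10 (adjusted p = 0.816), with -0.31 in the Western livers alone. Tgfb1, the main fibrogenic cytokine, had 0.41 ± 0.13 (adjusted p = 0.116), with quercetin 2 at 7.70 and the other quercetin livers at or below 6.79. Without quercetin 2, 1 stellate cell marker and 1 TGF-beta and PDGF gene passed, and both were Pdgfra, which is on both lists. Without quercetin 6 the counts were 1 and 0, without Western 2 they were 2 and 1, and with the values as deposited 8 and 4. Sinusoidal endothelial markers had 1 of 16 higher (median 0.12), the scavenger receptor Stab1 at 0.29 ± 0.07, lost without Western 1 (0.0599), Western 2 (0.0566), quercetin 2 (0.258) or quercetin 6 (0.183). None of the 8 mesothelial and portal fibroblast markers was called (median 0.15).

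**Figure D5:**
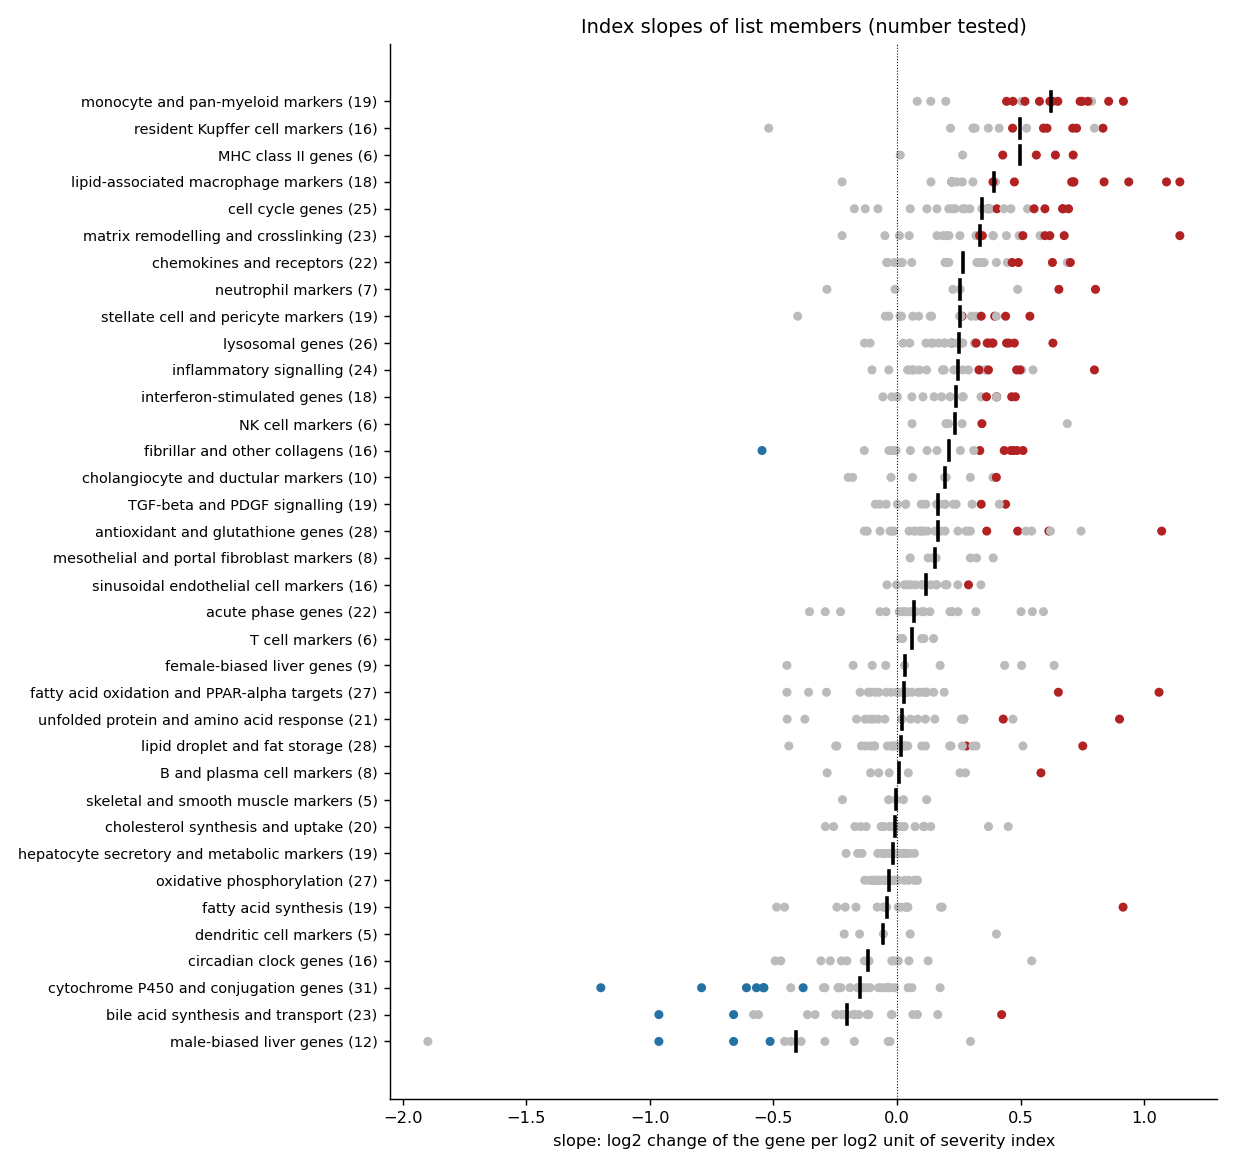
Slope of each list member on the index (horizontal, log2 per log2 unit of index) for the gene lists with 5 or more members tested (vertical, number of members in brackets). Each point is 1 gene, red where it was higher and blue where it was lower at an adjusted p under 0.05 and grey otherwise, and the black bar is the median. Myeloid, Kupffer cell and class II lists sit at the top with medians of 0.50 to 0.62 and male-biased genes at the bottom with -0.41.

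Cell division genes were higher in 7 of 25 cases and lower in 0, with a median slope of 0.34. Among all genes 3.03% were higher. Cdk1, the kinase that starts mitosis, ran from 5.50 to 6.39 (median 6.02) in the Western group and from 5.12 to 6.20 (median 5.93) in the quercetin group, with control livers at 5.05 to 5.94. The groups overlapped, and within each Western-fed group the liver with the lowest index had the lowest Cdk1. Its slope was 0.60 ± 0.09 (SE; adjusted p = 0.00371), with r = 0.90, rho = 0.97 (permutation p = 1e-05 and 4e-05) and r = 0.88 without the end livers. Ccnd1, the cyclin that carries cells through G1, had a slope of 0.67 ± 0.10 and passed, like Cdk1, with any 1 liver left out. Mki67, the proliferation antigen Ki-67, had 0.67 ± 0.09 and Cdc20, an activator of the anaphase-promoting complex, 0.69 ± 0.12. Without quercetin 2 their adjusted p-values were 0.0511 and 0.0914, and 2 of the 25 genes passed at a median slope of 0.33. Between the Western and control groups Cdk1, Ccnd1, Mki67 and Cdc20 had log2 differences of 0.63, 0.58, 0.43 and 0.55, of which 0 passed the threshold (adjusted p from 0.0617 to 0.193, limma). In that comparison 3 of the 25 cell division genes were higher and 0 lower, where 8.65% of all genes were called in either direction.

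Genes of hepatocyte secretion and of detoxification differed in their counts. Of 19 secretory and metabolic hepatocyte markers, such as albumin and the apolipoproteins, 0 were called and the median slope was -0.01, with slopes from -0.21 to 0.07. Among 31 cytochrome P450 and conjugation genes 7 were lower and 0 higher, with a median of -0.15, where 0.652% of all genes were lower. Cyp2c29, a P450 of drug and fatty acid oxidation, ran from 11.73 to 12.48 in the Western group and from 11.50 to 12.54 in the quercetin group, with the control livers at 12.20 to 12.60. Both Western-fed groups reached below the lowest control liver, and neither exceeded the highest. Quercetin 2 and Western 1 had the lowest levels and quercetin 6 and Western 2 the highest. Its slope was -0.54 ± 0.09 (SE), or 1.46-fold lower per unit of index (adjusted p = 0.00389), with r = -0.91, rho = -0.91 (permutation p = 5e-05 and 0.00054) and r = -0.87 without the end livers. Cyp2c54 ran from 8.41 to 10.70 and from 8.57 to 10.96, with a control range of 10.57 to 11.31, and had a slope of -1.20 ± 0.23 (SE; adjusted p = 0.011). Its r was -0.83 and rho -0.91 (permutation p = 0.00237 and 0.00047), with r = -0.68 without the end livers. Cyp2c37 had -0.79 ± 0.12. These P450 genes are close paralogs, so their probe sets may read more than 1 of them. Sult2a8, a sulfotransferase of bile acids, had -0.61 ± 0.11. Without quercetin 2 the adjusted p-values of Cyp2c29, Cyp2c54, Cyp2c37 and Sult2a8 were 0.0860, 0.118, 0.0741 and 0.117, and without quercetin 6 those of Cyp2c54 and Sult2a8 were 0.0558 and 0.0608. Of the 31 genes, 0 passed without quercetin 2 and 2 without quercetin 6, at median slopes of -0.11 and -0.20.

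Genes that are normally higher in male than in female mouse liver, under control of pulsatile growth hormone, were lower in 3 of 12 cases and higher in 0, with a median slope of -0.41. Over all genes 0.652% were lower and 3.03% higher. Slco1a1, an uptake transporter of organic anions, had a slope of -0.96 ± 0.22 (SE; adjusted p = 0.026), and Cyp7b1, an oxysterol hydroxylase of the alternative bile acid pathway, -0.66 ± 0.16 (adjusted p = 0.032). Susd4, a complement regulator, had -0.51 ± 0.12. Of the 12 genes, 1 passed with array medians centred, 1 without Western 2 and 0 without quercetin 2 or quercetin 6. The call of Slco1a1 was lost without Western 2 (0.0716), quercetin 2 (0.126) or quercetin 6 (0.126). That of Cyp7b1 was lost without Western 2 (0.0684), Western 4 (0.0529), quercetin 2 (0.0914) or quercetin 6 (0.195), and that of Susd4 without Western 1 (0.0606), Western 4 (0.0531), quercetin 2 (0.126) or quercetin 6 (0.241). Hsd3b5, a steroid dehydrogenase of male liver, had the steepest estimate, -1.90 ± 0.555, but did not pass (adjusted p = 0.082). It was at 8.97 to 11.05 in control livers and ranged from 5.46 to 9.49 and from 5.99 to 9.35 in the Western-fed groups, with Western 2 and 6 at 8.75 and 9.49, quercetin 3 and 6 at 9.35 and 9.31, and no other Western-fed liver above 7.40. Female-biased genes had 0 of 9 called and a median of 0.03. Of 23 genes of bile acid synthesis and transport 2 were lower, Slco1a1 and Cyp7b1, and 1 was higher, Abcc4, an efflux pump (0.42 ± 0.11), whose call was lost without any 1 liver but Western 6 (0.0540 to 0.200). Without Western 2, quercetin 2 or quercetin 6, 0 of these 23 genes passed.

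Other genes with steep positive slopes varied in how far they rested on single livers. Sema3f, a secreted semaphorin, had 1.13 ± 0.20 (SE; adjusted p = 0.00768, limma) and ran from 5.12 to 6.97 in the Western group and from 4.87 to 7.08 in the quercetin group, overlapping the control range of 4.87 to 5.55. Its call was lost without quercetin 6 (0.10), and its other probe sets, both dimmer, had slopes of 0.33 and 0.42. Gstm3, a glutathione transferase, had 1.07 ± 0.13 (SE; adjusted p = 0.0013) and ran from 10.09 to 11.42 in the Western group and from 9.49 to 11.80 in the quercetin group, above a control maximum of 9.18. It passed with any 1 liver left out, and its second probe set had 1.35. Slc25a4, a mitochondrial ADP/ATP carrier, had 0.62 ± 0.07 and followed the index with r = 0.98, rho = 0.97 (permutation p = 1e-05 and 4e-05) and r = 0.98 without the end livers. Other probe sets of Slc25a4 had slopes of 0.25 (r = 0.68) and 0.55, and of 0.06 on the dimmest. Its control livers, 6.49 to 6.65, lay within the ranges of both Western-fed groups, 6.38 to 7.13 and 6.31 to 7.52. Ly6d, a lipid-anchored surface protein, had the largest slope of the called genes, 1.38 ± 0.32 (adjusted p = 0.032), and lost its call without Western 1 (0.0574), Western 2 (0.0510), quercetin 2 (0.216) or quercetin 6 (0.244). Fgf21, a hormone secreted by stressed liver, had 1.06 ± 0.25, but its rho was 0.17 (permutation p = 0.636) and its r dropped from 0.77 (permutation p = 0.025) to 0.23 without the end livers. Its adjusted p was 0.032 with all livers, 0.0581 without Western 1, 0.371 without quercetin 2 and 0.194 without quercetin 6. Atf3, a stress-induced transcription factor, had 0.90 ± 0.15, with 1.10 in the quercetin livers and 0.40 in the Western livers (0.104 without quercetin 2 and 0.0608 without quercetin 6).

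In the lower direction, Pcnt, the centrosome scaffold pericentrin, had -1.38 ± 0.28 on 1 probe set and -0.01 on another. Its call was lost without Western 2 (0.0782) or quercetin 2 (0.230). Fzd10, a Wnt receptor, had -1.12 ± 0.19, lost without quercetin 2 (0.0675) or quercetin 6 (0.0558). In the higher direction, 1 of 10 cholangiocyte markers was called, where 3.03% of all genes were higher. This was Krt8, a keratin of hepatocytes and bile duct cells, at 0.40 ± 0.10. It lost its call without any 1 of 8 livers, all but Western 5 and quercetin 1, 3 and 5 (0.0519 to 0.284).

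Of 28 genes that coat lipid droplets or store fat, 2 were higher and 0 lower, with a median slope of 0.01, where 3.03% of all genes were higher. The count was 4 with the values as deposited, 4 with an index of the collagens alone, 1 without Western 2 and 0 without quercetin 2 or quercetin 6. Cidea, a protein that fuses lipid droplets and was chosen after its values were seen, was at 9.83 to 10.46 in the Western group and at 9.16 to 10.61 in the quercetin group, against 5.05 to 6.26 in the control group. Its slope on the index was -0.02 ± 0.19 (adjusted p = 0.980), with 0.30 in the Western livers and -0.14 in the quercetin livers. It was above 0 without quercetin 2 (0.16) and with the values as deposited (0.04). Plin2, the main coat protein of hepatocyte lipid droplets, had 0.26 ± 0.08 (adjusted p = 0.092), and Cd36, a fatty acid uptake receptor, 0.31 ± 0.09 (adjusted p = 0.085). The called members were Fabp4, a fatty acid carrier of fat cells and macrophages, at 0.75 ± 0.12, and Apoa4, an apolipoprotein, at 0.28 ± 0.07. Fabp4 lost its call without quercetin 2 (0.0511) or quercetin 6 (0.0558) and Apoa4 without any 1 of 10 livers, all but Western 6 and quercetin 3 (0.0562 to 0.286).

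Other metabolic lists differed in their counts, to be read against the 3.03% of all genes that were higher. Among 28 antioxidant and glutathione genes 4 were higher and 0 lower (median slope 0.17), among them Gstm3 and Hmox1, the enzyme that breaks down heme, at 0.61 ± 0.09 (adjusted p = 0.0614 without quercetin 2). The count was 1 without quercetin 2, 2 without quercetin 6, 2 without Western 2 and 9 with the values as deposited. Fatty acid synthesis had 1 of 19 higher (median -0.04), the desaturase Scd2 at 0.92 ± 0.17 (0.167 without quercetin 2 and 0.0595 without quercetin 6). Fatty acid oxidation had 2 of 27 (median 0.03), Fgf21 and Pdk4, a kinase that shuts off pyruvate oxidation, at 0.65 ± 0.12 (0.132 without quercetin 2). Acute phase genes had 0 of 22 called (median 0.07), cholesterol synthesis and uptake 0 of 20 (median -0.01), the circadian clock 0 of 16 (median -0.12) and oxidative phosphorylation 0 of 27 (median -0.03). The signs of the medians of fatty acid synthesis, cholesterol and oxidative phosphorylation genes turned with the values as deposited, to 0.05, 0.10 and 0.02. Markers of red blood cells, fat cells, muscle and exocrine pancreas, which would show other tissue in the sample, had 0 calls among 2, 2, 5 and 3 genes tested.

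Quercetin in the diet shifted no single gene past the threshold. The test of the quercetin against the Western group called 0 of 13645 genes (392 had an unadjusted p under 0.05, limma), and the count was also 0 with the index as a covariate. The Western group against the control group gave 1180 called genes (8.65%), 749 higher and 431 lower, and 748 without Western 4, 784 without Western 5, 773 without control 6 and 3725 with the values as deposited. The mean of the index genes in the quercetin group, 7.79 ± 0.68 (SD, n = 6), lay below the Western mean of 8.06 ± 0.43 (SD, n = 6) by less than the SD within either group.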

How the data were processed

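RNA of each liver was hybridised to 1 Affymetrix Mouse430_2 array. The deposited values are linear-scale intensities per probe set, with software and any scaling by the authors not given in the sources used here. They ran from 0.0118 to 12323.2 over 45101 probe sets, with 0 missing. Trimmed mean intensities ran from 67.2 to 102.5, and with 1-colour arrays their number limits the precision. Values were taken as log2(value + 16) and quantile normalized over the 18 arrays. The 64 control probe sets were left out, as were those with several gene symbols (932) or none (9160). Each of the remaining 18193 genes was read by its brightest probe set, and genes whose mean level was under the 25th percentile (log2 4.56) were removed, which left 13645. Control 4 and control 5 differed by less than other pairs (SD of log2 differences 0.0657 over 4941 bright probe sets, against 0.175 for the next pair), so they were averaged and counted as 1 sample.

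The index was tested with limma 3.58.1 in R 4.3.3 on the 12 Western-fed arrays, with a mean per diet group and the centred index as terms, and p-values were adjusted over 13641 genes (Benjamini-Hochberg, threshold 0.05). The index genes were not tested. Contrasts between groups used all 17 samples. Permutation tests drew 100000 two-sided permutations of the index within diet groups, and their p-values were not adjusted over genes. The code was tested on simulated data. The members and lists were chosen with earlier results of these data known. Genes were named from the 15 steepest slopes and the 10 smallest p-values in each direction and up to 4 members of each list, and genes outside this rule are said to be so. Alternatives changed the normalization, pseudocount, filter, probe set choice, index genes, covariates and livers used. Sequences came from RefSeq tables and figures from Python 3.11.15 with matplotlib 3.10.9.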

Additional observations from a re-analysis of the deposited data

Results flagged for a closer look

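In 16 of 261 sets of 5 or 6 livers examined, the highest or lowest liver stood apart from its group, measured as its gap to the nearest liver divided by the range of the group. Dixon's critical values were used, and chance gives about 5% of such flags. Western 2 was the liver apart in 8 of them, as the lowest of its group each time. The index had ordered the livers and most of the genes were chosen because they followed it, so these 8 restate the low index of Western 2 and are not separate evidence. The ratios were 0.634 for the index level, 0.735 for Slamf9, a receptor of myeloid cells, 0.655 for H2-Eb1, 0.809 for Oasl2 and 0.807 for Ifi27l2a. They were 0.738 for Col6a1, 0.738 for Mmp2 and 0.683 for Pdgfra. Quercetin 2 stood apart as the highest for Tgfb1 (0.842), S100a8 (0.715) and Tlr2 (0.631). Quercetin 6 stood apart as the lowest for Csf3r (0.660, at 4.64 with the next liver at 5.78) and Klrd1 (0.634). Among control livers, control 6 was lowest for Vim (0.812) and Gstm3 (0.768), and control 3 was highest for Cidea (0.716, at 6.26 with the next at 5.39).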

How the results depend on the processing

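The counts of genes higher and lower with the index, 413 and 89, moved to 838 and 30 as deposited, 662 and 42 after centring array medians, 200 and 43 with the rank of the index, and 270 and 59 with array brightness as a covariate. A pseudocount of 64 gave 140 lower genes, and an index of Gpnmb and Lgals3 alone gave 50. The quercetin livers alone gave 88 and 10, the Western livers alone 0 and 0, and the livers numbered 1 to 3 or 4 to 6 alone 0 and 0 each. Leaving out each liver in turn gave 44 to 421 higher and 2 to 93 lower genes. Settings chosen after seeing the data gave 9 and 1 without quercetin 2 and quercetin 6, and 0 and 0 without these and Western 2. Livers of the same number had correlated deviations of 0.11, -0.26, 0.11, 0.10, 0.16 and 0.27, and 2 of 6 correlated best with their own number, so the numbers were not taken as pairs. With the replicate number as a block 88 and 14 genes were called. Western against control gave 3725 genes with the values as deposited and 748 to 1394 with each liver left out, and 773 without control 6. Quercetin against Western and the difference in slope stayed at 0 calls in each alternative run. Of 78 called genes followed through these settings, most of them named above, 22 kept their call without any 1 liver, and 54 lost it without quercetin 2. Slopes that turned sign were those of Cidea (0.043 as deposited, 0.048 with medians centred, 0.012 without Gpnmb in the index, 0.039 with collagens only, 0.30 in Western livers, 0.10 with the block, 0.093 with brightness, -0.15 to 0.16 with each liver left out, 0.27 without quercetin 2 and 6) and Acta2. For Acta2 they were -0.0043 without probe sets of the _x and _s kinds, -0.016 with ranks, -0.31 in Western livers, -0.025 in livers 1 to 3, -0.076 to 0.19 with each liver left out, -0.33 without both and -0.31 without these and Western 2. Trem2 turned to -0.066 in Western livers and Tgfb1 to -0.069 in livers 4 to 6. Without quercetin 2, quercetin 6 and Western 2, S100a8 turned to -0.18 and Fgf21 to -0.58. The causes were not tested.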
